A study of Mus musculus with 24 samples.

Results

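Control BV2 cells, an immortalised mouse microglial line, were compared with the extracellular vesicles (EVs) that control BV2 cultures released. The comparison takes 6 of the 24 libraries of the series, 3 of control cells and 3 of control EVs, chosen by their labels alone. Neither group received a stimulus; the other 18 libraries come from cells and EVs after LPS (100 ng/mL), IL10 (50 ng/mL) or TGFB (50 ng/mL) for 72 h. The labels name 1 cell line and an EV fraction of the cultures, with no isolation method in the sources used here. Nothing in them shows that the 3 libraries per group are separate cultures, so p-values describe only the spread among the libraries that entered each test, part of which may be technical. The tables list 1187 microRNA precursors by read count and do not separate the mature arms. The rule of the comparison asks what the vesicles hold in relation to their source cells, with shares and detection at matched depth because the vesicle libraries are shallow.

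A microRNA gene is transcribed as a hairpin, which Drosha and Dicer cut to a short duplex. One strand enters Argonaute and pairs with messenger RNAs mainly through its seed, bases 2 to 8. Vesicles carry some of these strands out of the cell together with fragments of ribosomal, transfer and other RNAs, and several precursor annotations lie on or resemble such RNAs. Microglia are the resident phagocytes of the brain and express the myeloid microRNAs mir-223, mir-142 and mir-146a.

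The sequences behind the main differences are given first, as RefSeq mature sequences on GRCm38.p6, 5′ to 3′, with the seed in capitals. RefSeq held a mature sequence for 199 of the 280 precursors tested. The next 4 are precursors whose counts were higher in EVs.
miR-6236: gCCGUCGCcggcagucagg
miR-6240: cCAAAGCAucgcgaaggcccacggcg
miR-1896: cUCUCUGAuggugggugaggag
miR-5108: gUAGAGCAcuggaugguuu
The miR-6236 sequence lies at chr9:110281353-110281371 on the plus strand and miR-6240 at chr5:114851973-114851998 on the plus strand, and GENCODE vM21 places neither inside another gene. miR-1896 lies at chr13:21445209-21445230 on the plus strand, in an exon of the non-coding gene 4930470G03Rik and antisense to an exon of Zscan26. miR-5108 lies at chr10:61774795-61774813 on the plus strand, antisense to an intron of H2afy2.

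The next 6 are members of the let-7 family, which share the seed GAGGUAG and held the largest family share of the cells' counts.
let-7a-5p: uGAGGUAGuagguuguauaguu
let-7f-5p: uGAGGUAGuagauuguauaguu
let-7c-5p: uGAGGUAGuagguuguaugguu
let-7b-5p: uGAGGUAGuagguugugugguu
let-7g-5p: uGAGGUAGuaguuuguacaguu
miR-98-5p: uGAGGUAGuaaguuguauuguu
let-7a-1 lies at chr13:48538239-48538260 on the minus strand, in an exon of the lincRNA 6720427I07Rik. let-7f-2 (chrX:151912353-151912374, plus strand) and mir-98 (chrX:151913229-151913250, plus strand) both lie in an intron of Huwe1. let-7b (chr15:85707325-85707346, plus strand) lies in an exon of Lncppara and let-7g (chr9:106178846-106178867, plus strand) in an intron of Wdr82.

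The last 3 are precursors lower in EVs that lie inside small nucleolar RNA (snoRNA) genes, a class of nuclear guide RNAs for ribosomal RNA modification.
miR-5121: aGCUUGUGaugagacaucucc
miR-677-5p: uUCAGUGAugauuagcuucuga
miR-3535: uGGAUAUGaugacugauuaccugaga
miR-5121 (chr7:45126925-45126945, minus strand) lies in Snord33, within the ribosomal protein gene Rpl13a. miR-677-5p (chr10:128085291-128085312, plus strand) lies in a transcript annotated as snoRNA in an intron of Atp5b. miR-3535 (chr1:86352062-86352087, minus strand) lies in the snoRNA Gm24148 in an intron of Ncl, the nucleolin gene.

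The control cell libraries held 289810, 409969 and 288720 counts and the control EV libraries 15869, 16027 and 18047, a 19.8-fold difference of the means. A count of 0 over the 3 libraries of a group allows up to 3 counts, which is 0.000303% of the counts in cells and 0.00601% in EVs. These limits and all counting intervals cover counting error only, since reads without molecular identifiers can be PCR copies. In the cells the myeloid markers were present: mir-142a had 851, 1287 and 975 counts, mir-146a 315, 434 and 346, and mir-223 74, 99 and 94. Of the markers of other cell types in the cell libraries, the neuron list took 0.0195 to 0.0339% of counts, epithelium 0.00277 to 0.00656%, muscle 0 to 0.000488%, endothelium and stroma 0.0587 to 0.0866%, and serum, red cell and liver 0.00439 to 0.00932%. No pair of replicates was alike within sampling noise (chi-square per degree of freedom, 4.56 to 13.4 between cell libraries and 7.81 to 14.8 between EV libraries). The biological coefficient of variation was 0.127 in cells and 0.812 in EVs, so the EVs varied more. Counts give the make-up of each library and not the amount of RNA per vesicle or per cell, and in bulk samples fewer cells of a type and less RNA per cell cannot be told apart.

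The EV counts were dominated by mir-6236. It had 2246, 3307 and 2332 counts in cells and 11700, 12156 and 13344 in EVs, so that the shallower libraries held more of it. Its share of counts was 0.796 ± 0.0186% in cells and 74.5 ± 1.17% in EVs (SD, n = 3). mir-6240 followed, with 439, 476 and 386 counts in cells and 1315, 1455 and 1201 in EVs, or 0.134 ± 0.0177% and 8.01 ± 1.24%. Neither group overlapped the other for either precursor. A list of 12 precursors taken to overlap or resemble ribosomal, transfer or small nucleolar RNA, mir-6236 and mir-6240 among them, took 6.26 ± 0.284% of the cell counts and 85.0 ± 1.96% of the EV counts. For mir-6236 and mir-6240 that resemblance was not tested here, and neither matched a GENCODE transcript. With mir-6236 taken out of every library the remaining members took 5.50 ± 0.30% and 41.4 ± 5.28%. The list leaves out 9 tested precursors whose mature sequence matches a small nucleolar or Cajal-body RNA transcript, mir-5121 and mir-677 among them. These 9 took 7.13 ± 0.634% of the cell counts and 0.608 ± 0.304% of the EV counts, the opposite direction, and with them, a choice made after seeing the data, the 21 precursors took 13.4 ± 0.784% and 85.6 ± 1.71%. Every share here was tested with a two-sided exact permutation test, for which 3 libraries against 3 cannot go below p = 0.1, and 66 of 85 library-level measures sat at that smallest p (Benjamini-Hochberg adjusted p = 0.129).

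**Figure D1:**
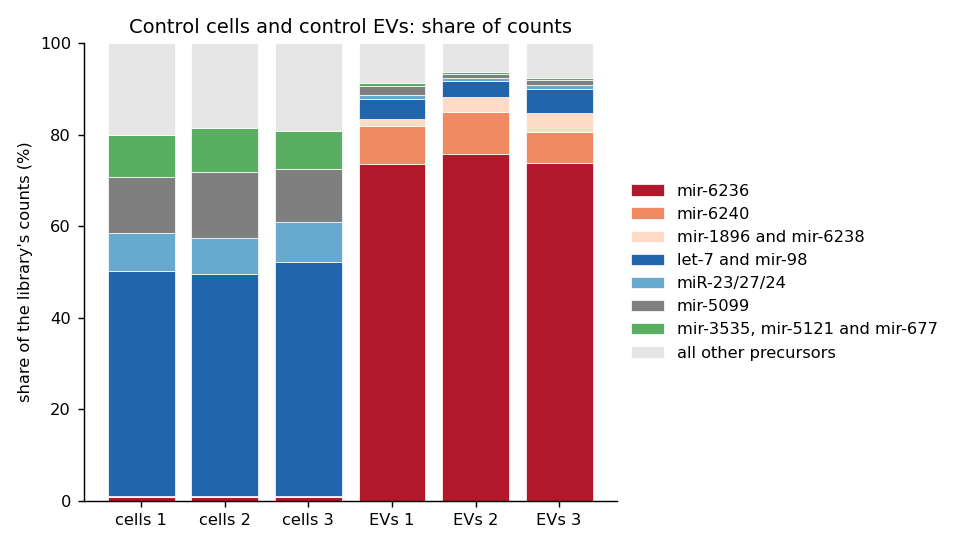
Share of each library's counts (vertical axis, percent) taken by 7 groups of precursors and by all others, for the 3 control cell and 3 control EV libraries (horizontal axis). mir-6236 fills 73.7 to 75.8% of the EV bars, and let-7 with mir-98 fills 48.7 to 51.2% of the cell bars.

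The let-7 family, known as a brake on cell division, held the cells' counts instead. Its 14 precursors took 49.3, 48.7 and 51.2% of counts in cells and 4.47, 3.53 and 5.09% in EVs. Shares within a library add up to a fixed total, so they were also taken without mir-6236. Without mir-6236 let-7 took 50.1 ± 1.29% of the cell counts and 17.0 ± 2.47% of the EV counts, and the groups still did not overlap. The miR-23/27/24 clusters, expressed in many cell types, took 8.41 ± 0.505% in cells and 3.24 ± 0.547% in EVs on the same basis. mir-5099 led the cells with 12.7 ± 1.53% of all counts and was the fourth most abundant in EVs with 1.29 ± 0.596%. The third and the fifth in EVs were mir-6238, with 46, 242 and 582 counts in EVs against 181, 156 and 141 in cells, and mir-1896, with 168, 278 and 188 against 1, 0 and 0. mir-6238 differed widely between EV libraries, whereas mir-1896 was high in each.

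The family's make-up needs no scaling between cells and EVs, because each member is set against the sum of the family in the same library. The let-7a copies made up 46.0 ± 0.240% of let-7 counts in cells and 40.7 ± 1.83% in EVs, and the let-7f copies 24.9 ± 0.326% and 20.1 ± 4.93%. The let-7c copies were 15.6 ± 0.472% and 21.2 ± 2.06%, let-7b 3.24 ± 0.164% and 5.33 ± 1.09%, and let-7g 1.16 ± 0.0740% and 2.71 ± 0.644%. mir-98 was 0.516 ± 0.0176% and 0.142 ± 0.0341%. For these 6 all EV libraries lay on one side of all cell libraries, with let-7c, let-7b and let-7g above and let-7a, let-7f and mir-98 below. The minor member let-7j was above as well, at 0.301 ± 0.0109% in cells and 0.686 ± 0.507% in EVs. let-7d, let-7e, let-7i and let-7k overlapped between the groups. The mir-98 value in EVs rests on 1 count in each library. The deposited counts cannot separate copies that share a mature arm: let-7a-1 and let-7a-2 had 113043 and 112183 counts in cells and 450 and 446 in EVs. Whether a read that fits several copies was counted on each of them is not given in the sources used here. If it was, the same reads enter more than once for let-7a, let-7f and let-7c, both here and in the family's share of all counts. Within miR-23/27/24, the mir-23 members were 53.3 ± 1.28% in cells and 64.2 ± 3.40% in EVs, and the mir-24 copies 44.9 ± 0.966% and 32.5 ± 1.37%, again without overlap.

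**Figure D2:**
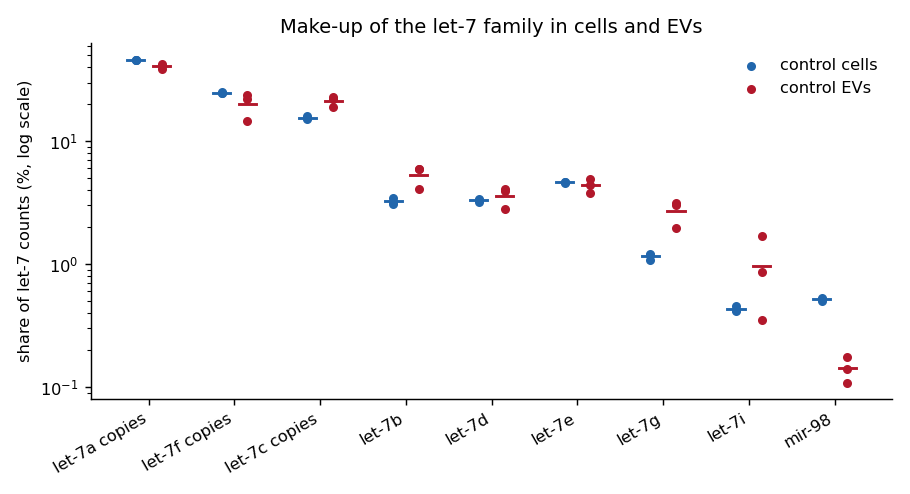
Share of the let-7 family's counts (vertical axis, percent, log scale) held by each member or set of copies (horizontal axis) in 3 control cell and 3 control EV libraries; points are libraries and bars are group means. let-7g is at 1.07 to 1.21% in cells and 1.97 to 3.16% in EVs, and mir-98 at 0.499 to 0.534% and 0.109 to 0.177%.

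The number of precursors seen depended on depth and on mir-6236. As deposited, 414, 449 and 427 precursors had a count in the cell libraries and 242, 228 and 245 in the EV libraries. When every library was thinned to the smallest total, 15869 counts, cells were expected to show 247 ± 2.62 precursors with at least 1 count and EVs 234 ± 7.42. At a minimum of 5 counts the numbers were 146 ± 4.13 and 87.9 ± 13.2. With mir-6236 taken out first and every library thinned to 3871 counts the order turned. Cells then showed 177 ± 4.03 precursors with at least 1 count and EVs 230 ± 4.54, and at a minimum of 5 counts 64.8 ± 5.09 and 84.7 ± 11.7. None of these 4 comparisons at matched depth had overlapping groups.

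**Figure D3:**
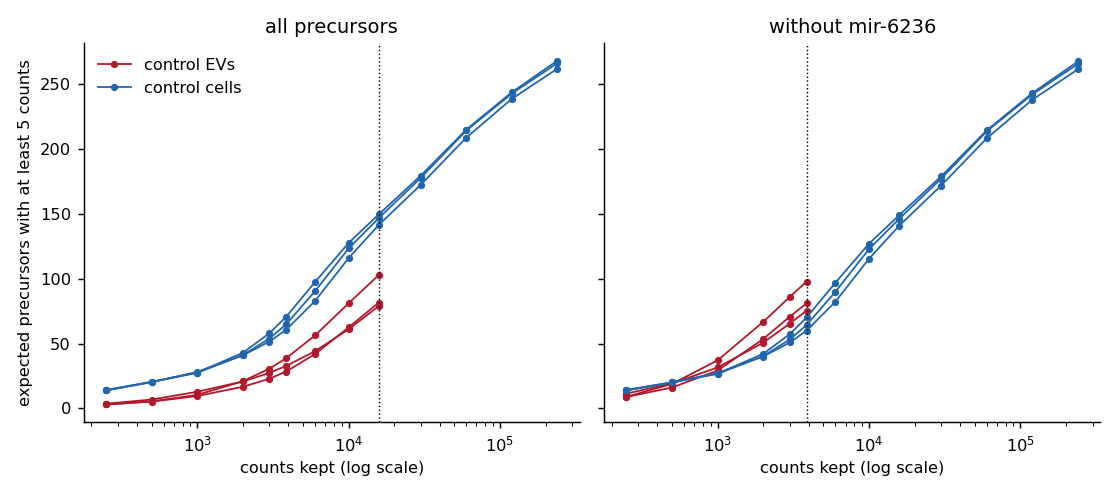
Expected number of precursors with at least 5 counts (vertical axis) against the number of counts kept (horizontal axis, log scale), 1 line per library, with all precursors (left) and without mir-6236 (right). At the dotted lines, the smallest totals of 15869 and 3871 counts, EVs lie below cells on the left (87.9 against 146) and above them on the right (84.7 against 64.8).

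The effective number of precursors, which is the number of equally abundant ones that would give the same Shannon entropy, was 34.2 ± 1.58 in cells and 4.25 ± 0.410 in EVs. Without mir-6236 it was 33.6 ± 1.57 and 31.4 ± 5.59 and the groups overlapped, so the order did not turn (exact permutation p = 0.8, adjusted p = 0.839). In cells 45, 37 and 41 precursors held 90% of the counts, and in EVs 13, 7 and 10. Without mir-6236 this became 45, 36 and 40 in cells and 73, 58 and 56 in EVs.

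Detected in at least 2 of 3 libraries with at least 5 counts, at 15869 counts, were an expected 145 precursors in cells and 69.5 in EVs. Of these 44.3 were shared, 63.8% of the EV list and 30.6% of the cell list. At 3871 counts without mir-6236 the lists held 60.1 and 66.9, with 36.8 shared, or 61.2% of the cell list and 55.0% of the EV list. Over the 100 tested precursors with at least 10 counts in EVs, the mean share in EVs followed that in cells with a Spearman correlation of 0.459. It was 0.666 over the 51 of these named with numbers below 500 and 0.356 over the other 49. These correlations run across precursors, which share libraries and are not independent replicates.

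Differences per precursor were estimated with edgeR's quasi-likelihood test in a fit of all 24 libraries, which share 1 estimate of the spread, and a Benjamini-Hochberg adjusted p under 0.05 was called. That estimate joins treated with control libraries and cells with EVs, whose coefficients of variation in control were 0.127 and 0.812. It can therefore understate the error in EVs. Of 280 precursors tested, 73 (26.1%) were called higher in EVs and 35 (12.5%) lower, together 108 (38.6%). With only the 6 control libraries 230 were tested, 36 called higher and 20 lower. The 3 EV libraries lay above the 3 cell libraries in normalised CPM (counts divided by the product of library total and TMM factor) for 39 precursors (13.9%) and below them for 123 (43.9%). The scale between the groups is uncertain. The TMM factors, which centre the middle of the distribution, were 1.93 to 2.34 in cells and 0.421 to 0.517 in EVs, so that mir-6236 alone reached a mean of 1597320 normalised CPM in EVs. With TMM factors the median log2 difference over all tested precursors was -0.54. With DESeq2's size factors it was 0.28, with 80 called higher and 8 lower. With library totals alone it was -2.67, with 55 higher and 170 lower. The same call was made under the 3 scalings for 55 of the 73 higher and 8 of the 35 lower precursors. These 8 were let-7a-1, let-7a-2, let-7f-1, let-7f-2, mir-98, mir-5121, mir-677 and mir-669a-6, and no called precursor was called in the opposite direction under another setting tried. Leaving out a library also changed the filter and the TMM factors. The median over all tested then moved to -1.58, -1.44 and -1.60 without EV library 1, 2 or 3 (332 to 338 tested). Without cell library 1, 2 or 3 it was -0.22, -0.24 and -0.21 (193 to 195 tested). Values given below with a library left out contain that shift.

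**Figure D4:**
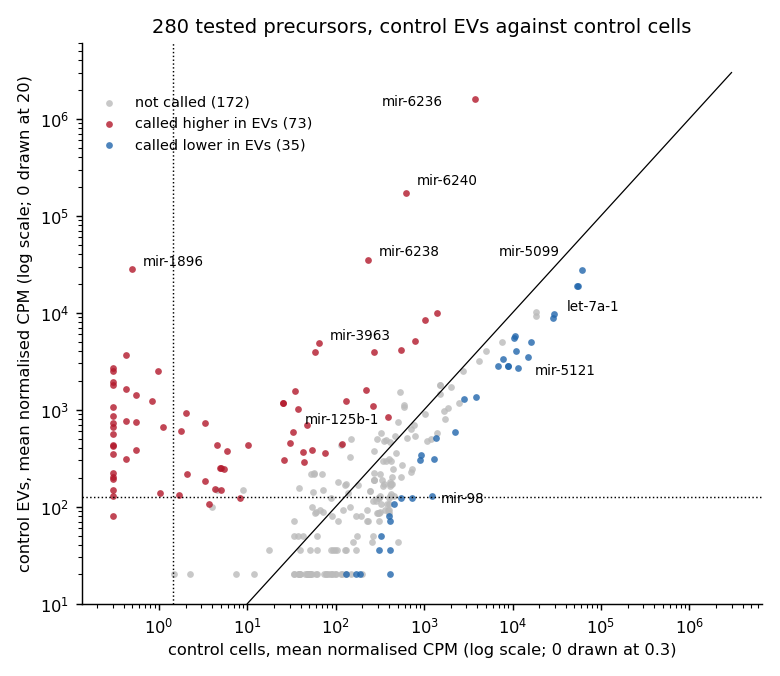
Mean normalised CPM of 280 tested precursors in control EVs (vertical axis, log scale) and control cells (horizontal axis, log scale), coloured by edgeR call. The solid line marks equal values and the dotted lines the level of 3 counts over a group (1.45 normalised CPM in cells, 127 in EVs). The 73 precursors called higher spread over the left side and the 35 called lower lie below the line. Of these 35, 4 had 0 counts in EVs and are drawn near the bottom.

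mir-6236 and mir-6240 had the smallest p-values. mir-6236 was 8.72 ± 0.43 higher in EVs on the log2 scale (SE; edgeR adjusted p = 1.39e-14) and mir-6240 8.10 ± 0.45 (adjusted p = 1.04e-13), higher in 3 of 3 EV libraries in both cases. On the list taken to overlap or resemble ribosomal, transfer or small nucleolar RNA, 11 were tested, 6 were called higher and 1 lower, with a median of 3.89 against -0.54 over all tested. The shares over all tested were 26.1% higher and 12.5% lower. With the 9 further precursors that match a small nucleolar or Cajal-body RNA, 20 were tested, 7 were higher and 4 lower, and the median was 0.24, so the direction of the list rests on which members it holds. For the 11, higher calls also came to 6 under either other scaling, while lower calls were 0 under DESeq2's size factors and 5 under library totals. mir-6238 was 7.24 ± 0.79 higher (adjusted p = 3.96e-08). mir-664, whose arms lie in the snoRNA Snora36b within an intron of Rab3gap2, had 146, 252 and 172 counts in cells and 10, 16 and 76 in EVs, 3.89 ± 0.61 higher (adjusted p = 1.01e-05). Without EV library 3, the highest for both, mir-664 was 2.09 higher and mir-6238 5.85, both still called. In that setting the median over all tested was -1.60. Of the 11, mir-3535, inside a snoRNA gene, was the one called lower.

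A second group was all but absent from the cells. Among the 73 higher precursors 18 had 0 counts over the 3 cell libraries and 12 had 1 to 3, while 43 had more. For these 30 the cells give only a limit or a few counts. They passed the filter on low counts through EV libraries, which fixed their direction, so their p-values are not given as support. Some of the other 43, mir-125b and mir-3968 among them, also passed it only through EV libraries in the fit of all 24. The filter therefore favoured this direction in the count of 73. mir-7000, from an intron of Mapk8ip1, had 31, 10 and 24 counts in EVs and 0 in every cell library, at least 1906-fold higher in normalised CPM against a floor of 3 counts over the group. mir-5119, from an intron of the kinase gene Cdk12, had 25, 14 and 20 in EVs, at least 1730-fold higher. mir-3544, on the strand opposite to the imprinted Dlk1-Dio3 cluster, had 17, 12 and 16 in EVs, at least 1320-fold higher, and mir-6345, from an intron of Ppp1r7, had 17, 14 and 10, at least 1202-fold higher. On library totals in place of normalised CPM the 4 bounds ran from 270 to 429. All EV libraries held each of the 4 and no cell library did.

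For those with 1 to 3 cell counts the ratio carries a 95% exact binomial counting interval, which leaves out the spread between libraries and is therefore too narrow. mir-1896 had 1 count in cells and 634 in EVs, a ratio of 55781 in normalised CPM (interval 9976 to 2206670). mir-5108 had 1 and 84 counts, with 40, 24 and 20 in the EV libraries, a ratio of 7391 (1291 to 295343). mir-3960 had 1 and 34 counts, a ratio of 2991 (502 to 121586). Over all 12 cell libraries of the series mir-1896 had 0 to 2 counts and over all 12 EV libraries 29 to 278. Support was thinner elsewhere: of the 73 higher precursors 42 had a count in each EV library and 26 had under 10 counts over the 3.

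Precursors known from other tissues were among the EV-high group. mir-1a-1, a muscle microRNA, had 0, 1 and 0 counts in cells and 12, 14 and 11 in EVs, a ratio of 3255 (95% counting interval 549 to 132011). Its copy mir-1a-2 had 0, 1 and 0 in cells but 12, 4 and 1 in EVs, a ratio of 1496 (234 to 62509). The copies thus differed in EV libraries 2 and 3, although they share a mature sequence. mir-203, best known from the epidermis, had 2, 0 and 0 in cells and 21, 16 and 22 in EVs, a ratio of 2595 (687 to 21932). mir-124-2, a neuronal microRNA with copies of identical counts and a member of the myeloid list too, had 0, 0 and 1 in cells and 12, 0 and 6 in EVs, and its groups overlapped. Of the muscle list 2 of 2 tested members were called higher, both of them mir-1a copies that share a mature sequence. Of the epithelium list 1 of 1 and of the neuron list 2 of 3 were called higher, and of the endothelium and stroma list 0 of 4. The share called higher over all tested was 26.1%. The mir-1a copies, mir-203 and mir-124-2 passed the filter on low counts through EV libraries, which fixed their direction. These list counts are therefore a description only. Under library totals the neuron list had 1 higher and 1 lower call, and mir-128-1, with 0, 7 and 1 counts in EVs, was no longer called. In the EV libraries the muscle list took 0.0720 to 0.158% of counts, epithelium 0.112 to 0.132% and neuron 0.0811 to 0.492%, above the cell libraries in each case. The neuron share in EV library 1 includes the mir-124 copies at 12 counts each and the mir-9 copies at 14 each, which may be the same reads. Other defining muscle members were at or near 0 in EVs: mir-206 and mir-133a-1 had 0 counts in all 6 libraries, and mir-133a-2 and mir-133b 1 count each over the EV libraries. In the epithelium list mir-205, mir-375, mir-141 and mir-429 were at 0 in all 6, and in the neuron list mir-218-1 and mir-218-2. Other members had counts in cells and few or none in EVs. In the epithelium list mir-200c had 9, 3 and 0 counts in cells and mir-192 6, 7 and 6, with 0 in each EV library. In the neuron list mir-128-2 had 30, 35 and 39 in cells and 0, 0 and 1 in EVs. There mir-138-2 had 7, 6 and 2 in cells and 0 in each EV library. At EV depth, cell counts this low can leave few or none in EVs. The serum, red cell and liver list was at 0 in EV libraries 1 and 2 and at 0.127% in library 3, from 12 counts of mir-486a and 11 of mir-144; mir-451a was at 0 in all 6 and none of the list was tested. Whether RNA of other tissues or of the medium has a part in these counts was not tested.

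mir-125b, a regulator of haematopoietic cells and of macrophage activation, was higher and had more counts in cells. Its identical copies each had 14, 22 and 17 counts in cells and 10, 10 and 7 in EVs, 5.49 ± 0.62 higher on the log2 scale. They passed the filter on low counts only through EV libraries, which favoured this direction, so the p-value is not given as support. With library totals the difference was 3.34 and still called. These 2 copies were the only tested members of the list of miR-99, miR-100 and miR-125, so that both were higher is a description only.

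Some mature sequences match messenger RNA exactly. Of the 64 higher precursors with a RefSeq mature sequence, 11 matched a protein-coding transcript of GENCODE vM21 on the sense strand, of the 22 lower ones 0 did, and of the 113 not called 10 did. Over all 199 tested precursors with a sequence 21 (10.6%) matched. The 11 stand for 9 distinct sets of sequences, since the mir-692 copies share 1. A small nucleolar or Cajal-body RNA transcript was matched by 2 of the 64 higher, 4 of the 22 lower and 8 of the 113 not called. The mRNA matches include miR-692 and miR-682, shown here with the seed in capitals because they lie inside the mRNAs of Ftl1, the ferritin light chain, and of Rpl37a, a ribosomal protein.
miR-692: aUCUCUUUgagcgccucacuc
miR-682: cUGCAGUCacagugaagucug
mir-692-3 had 794, 1449 and 698 counts in cells and 23, 73 and 149 in EVs, 2.86 ± 0.53 higher (edgeR adjusted p = 9.11e-05). mir-682 had 345, 526 and 295 in cells and 23, 27 and 49 in EVs, 2.90 ± 0.49 higher (adjusted p = 3.02e-05). With library totals mir-692-3 was 0.73 and mir-682 0.76 higher, and neither was called (adjusted p = 0.249 and 0.209). Without EV library 3 mir-692-3 was 1.65 and mir-682 2.02 higher, both still called, while the median over all tested was -1.60. miR-692 at the locus named mir-692-3 lies at chr13:74407121-74407141 on the plus strand, in an exon of Ftl1-ps1, and miR-682 at chr13:75645119-75645139 on the plus strand, in an exon of the pseudogene Gm4149. How reads that fit both were counted is not given in the sources used here, and the annotated arms cannot be told apart from fragments of these mRNAs.

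Several members of the let-7 family were lower in EVs. Of its 14 members 7 were called lower and 0 higher, with a median of -1.08 against -0.54 over all tested, and 10 had EV libraries below all cell libraries. Among all tested precursors 12.5% were called lower and 43.9% lay below. The 7 include the let-7a and let-7f copies, whose counts are not independent. let-7f-2 had 17481, 24168 and 18320 counts in cells and 50, 60 and 104 in EVs, and fell by 1.69 ± 0.28 on the log2 scale (edgeR adjusted p = 1.98e-05). let-7a-1 had 33105, 45800 and 34138 in cells and 156, 109 and 185 in EVs, and fell by 1.52 ± 0.28 (adjusted p = 6.88e-05). mir-98 had 713, 1031 and 789 in cells and 1, 1 and 1 in EVs, a ratio of 9.60 (95% counting interval 3.28 to 46.6; adjusted p = 4.20e-05). let-7e and let-7d were also lower, at -1.43 ± 0.34 and -1.21 ± 0.35. let-7c-1, at -0.96 ± 0.39 (adjusted p = 0.0509), and let-7c-2, at -0.88 ± 0.38 (adjusted p = 0.0728), did not pass. With DESeq2's size factors 5 let-7 members were called lower and with library totals 13. let-7d lost its call when any cell library was left out (adjusted p = 0.118 to 0.167) and let-7e without cell library 2 (adjusted p = 0.0532). Leaving out any cell library also moved the median over all tested, to -0.24 to -0.21, so these lost calls do not show the weight of 1 library. Without EV library 3 let-7a-1 was at -2.20 and let-7f-2 at -2.54, while the median over all tested moved from -0.54 to -1.60.

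Precursors inside snoRNA genes also lay among the lower ones. mir-5121 had 9092, 14171 and 8192 counts in cells and 26, 25 and 31 in EVs, and fell by 2.10 ± 0.34 (edgeR adjusted p = 1.49e-05). mir-677 had 6850, 10684 and 6702 in cells and 28, 14 and 21 in EVs, and fell by 2.11 ± 0.34 (adjusted p = 1.70e-05). mir-3535 had 10564, 14184 and 8994 in cells and 43, 36 and 36 in EVs, and fell by 1.70 ± 0.39 (adjusted p = 0.000952). These 3 took 3.14, 2.43 and 3.41% of the cell counts on average and 0.164, 0.127 and 0.232% of the EV counts. mir-5121 and mir-677 kept their call under each of the 3 scalings, and mir-3535 was not called with DESeq2's size factors.

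In the miR-23/27/24 clusters 4 of 6 members were called lower and 0 higher, with a median of -0.91. Among all tested precursors 12.5% were called lower and 26.1% higher. The mir-24 copies share a mature arm and had 18274 and 18400 counts in cells and 68 each in EVs. mir-23a and mir-23b had 22191 and 21577 in cells and 136 and 131 in EVs. Counts within these pairs may not be independent. mir-24-2 had 5537, 7116 and 5747 counts in cells and 24, 16 and 28 in EVs, and fell by 1.63 ± 0.36 (edgeR adjusted p = 0.000610). mir-23a had 6305, 8925 and 6961 in cells and 42, 35 and 59 in EVs, and fell by 0.90 ± 0.28 (adjusted p = 0.0109). With DESeq2's size factors 0 of the 6 were called. mir-25, a relative of the proliferation-linked miR-17-92 cluster, had 4102, 5769 and 4522 in cells and 20, 18 and 29 in EVs, at -1.30 ± 0.31 (adjusted p = 0.00153). It was 1 of 12 tested members of that list called lower, with 1 higher. mir-23a and mir-25 lost their calls when any cell library was left out (edgeR adjusted p = 0.226 to 0.362 and 0.0706 to 0.127). In those settings the median over all tested was -0.24 to -0.21. mir-5099 had 35148, 59096 and 33218 in cells and 314, 144 and 181 in EVs, at -1.14 ± 0.29 (adjusted p = 0.00266). Without EV library 1 mir-5099 was at -2.19, where the median over all tested was -1.58. Without cell library 2 it was at -0.69 and not called (edgeR adjusted p = 0.116), where that median was -0.24.

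The Sfmbt2 cluster, a rodent-specific run of repeated microRNAs in an intron of Sfmbt2, gave the most precursors to the test. Of 82 listed members 59 were tested, 10 were called lower and 0 higher, and 51 had EV libraries below all cell libraries. Over all tested precursors 12.5% were called lower and 43.9% lay below. Its median was -1.83, or -1.29 with members at 0 in EVs held at their bound. Its share of counts was 4.24 ± 0.715% in cells and 0.338 ± 0.163% in EVs, and 4.27 ± 0.720% and 1.32 ± 0.608% without mir-6236. mir-669a-6 had 332, 285 and 228 counts in cells and 0 in each EV library, at least 3.20-fold lower against the floor (edgeR adjusted p = 0.00476). mir-669c, the most abundant, had 1086, 1447 and 1015 in cells and 8, 4 and 7 in EVs, at -1.08 ± 0.73 (adjusted p = 0.228). mir-466c-3 had 542, 495 and 446 and 0, 2 and 4, at -1.51 ± 0.74 (adjusted p = 0.105). Members share near-identical arms, so their counts are not independent. With DESeq2's size factors 1 member was called lower and with library totals 56.

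The immune and myeloid microRNAs named by the rule were mostly not called, as were 172 of the 280 precursors tested. mir-142a, a haematopoietic microRNA, was at 0.00 ± 0.37 (adjusted p = 0.994), with 10, 6 and 20 counts in EVs. mir-21a, linked to macrophage activation, had 440, 644 and 506 counts in cells and 2, 5 and 10 in EVs, at -0.10 ± 0.48 (adjusted p = 0.871). mir-146a, a brake on Toll-like receptor signalling, had 19, 12 and 3 counts in EVs, at 1.50 ± 0.81 (edgeR adjusted p = 0.140). mir-155, induced by inflammatory signals, had 7, 8 and 9 counts in cells, and mir-223, a myeloid marker, 74, 99 and 94; both were at 0 in every EV library. At EV depth the floor of 127 normalised CPM is above the 11.8 of mir-155 in cells, so a loss of mir-155 from EVs was not detectable at this depth. For mir-223 the limit depends on the scale: it was at least 1.01-fold lower in normalised CPM and at least 4.50-fold lower on library totals. Of the myeloid list 2 of 8 tested members were called higher, mir-342 and mir-124-2, and 0 lower, a share near the 26.1% over all tested, and of the precursors that TLR4 and NF-kB signalling induces 0 of 4 in either direction. The myeloid list took 0.633 ± 0.0452% of counts in cells and 0.304 ± 0.130% in EVs, but without mir-6236 0.638 ± 0.0456% and 1.18 ± 0.468%, so its direction turned. The size of that turn rests in part on the mir-124 copies, which are neuronal too and each had the same 12, 0 and 6 counts in EVs. In EV library 2, where they had 0, the list took 0.697% without mir-6236, against 0.601 to 0.689% in the cell libraries.

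Among the other families, the 14 tested members of a list of microRNAs often reported as EV cargo had 0 called higher and 1 lower, with a median of -0.71 against -0.54 over all tested. The miR-15/16 list had 0 of 5 called, with mir-16-1 at 150, 160 and 153 counts in cells and 0, 0 and 2 in EVs. The miR-29 list had 1 of 4 higher, the miR-30 list 0 of 5 called, miR-181 0 of 2, and miR-221 with miR-222 0 of 2. Against 26.1% higher and 12.5% lower over all tested, lists this small are a description only. mir-92a-1 of the miR-17-92 group had 0, 0 and 14 counts in EVs, at -1.05 ± 0.59 (adjusted p = 0.155). mir-210, the hypoxia-induced microRNA, had 992, 1069 and 854 in cells and 4, 6 and 3 in EVs, at -1.34 ± 0.77 (edgeR adjusted p = 0.161). Members with a few EV counts cannot be placed more closely than these errors allow.

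**Figure D5:**
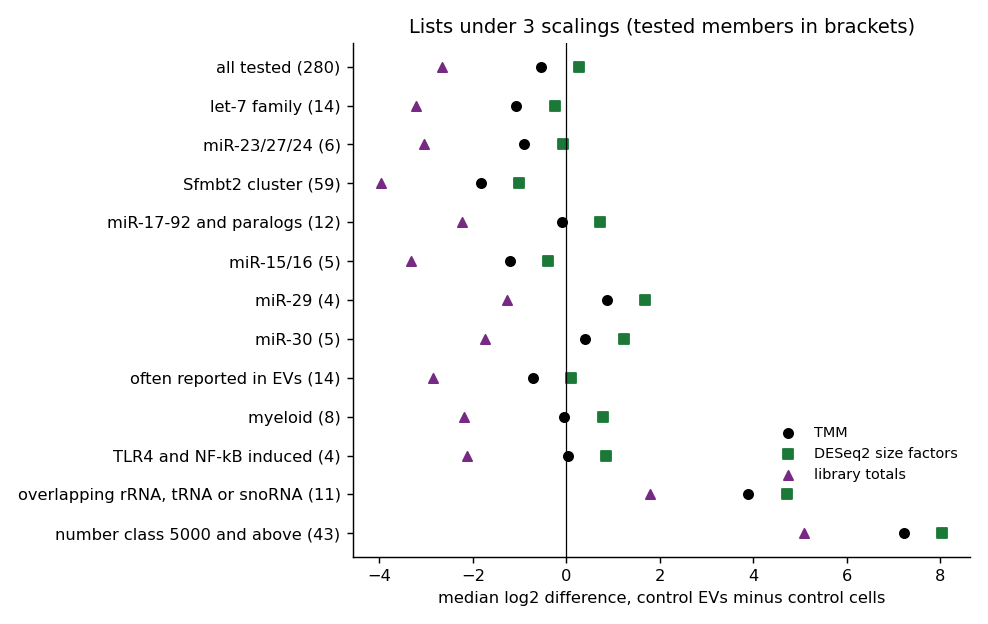
Median log2 difference, control EVs minus control cells (horizontal axis), over the tested members of 12 lists and over all 280 tested precursors, under TMM factors (circles), DESeq2's size factors (squares) and library totals (triangles). Medians run from 1.79 to 4.72 for the 11 tested of the list taken to overlap rRNA, tRNA or snoRNA. They run from 5.08 to 8.05 for the 43 of 476 precursors numbered 5000 and above that passed the filter on low counts, a position the filter helped to set. let-7 (-3.23 to -0.25) and the Sfmbt2 cluster (-3.96 to -1.01) lie below 0 under each.

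The number in a precursor's name follows the order of annotation, so low numbers are the long-known and mostly conserved microRNAs. Of 476 precursors numbered 5000 and above 43 passed the filter on low counts, 16 of them with at most 3 counts over the cell libraries, so that the filter itself favoured EV-high members. Of the 43, 32 were called higher and 3 lower, given as a description only. Of 12 numbered from 2000 to below 5000, 6 were higher and 1 lower, and of 65 from 500 to below 2000, 18 and 9. Of 104 from 100 to below 500, 11 were higher and 10 lower, and of 56 below 100, let-7 among them, 6 and 12. Over all tested 26.1% were higher and 12.5% lower, and the class from 500 to below 2000 was near both shares. Precursors numbered 5000 and above took 17.7 ± 1.81% of the cell counts and 87.3 ± 1.45% of the EV counts, and without mir-6236 17.0 ± 1.83% and 50.1 ± 3.56%. The class of 5000 and above holds mir-5099 and mir-5121, which were lower in EVs.

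Sequence features were described over the 221 tested precursors outside the Sfmbt2 cluster, of which 199 had a RefSeq sequence; for the cluster itself 0 of 59 did, and over all 280 the check is void because under 80% of precursors are covered. The median GC share of the mature arms was 52.4% in the 64 higher precursors (quartiles 47.4 and 61.9%), 47.7% in the 22 lower ones (41.5 and 53.1%) and 47.7% in the 113 not called (43.2 and 54.2%). Short motifs described for export into vesicles were searched on the mature strand of either arm, with overlaps allowed. GGAG was in 18.8% of the higher, 9.09% of the lower and 19.5% of the precursors not called, and in 14.2% of all 1674 distinct mature sequences of the table. CCCU was in 17.2, 9.09 and 17.7% of the 3 sets (11.4% of all sequences) and GGCU in 16 of 64, 5 of 22 and 21 of 113 (13.3%). CGGGAG, which holds GGAG, was in 0, 0 and 0.885% (0.538%), and AGAAC, described for retention in cells, in 4.69, 0 and 4.42% (1.97%). A precursor with 2 arms has more bases in which to hold a motif than a single sequence, so the shares of precursors and of sequences are not on one footing. Shared seeds among called precursors were GAGGUAG, in 6 let-7 members that were all lower, UCUCUUU in the 3 mir-692 copies, CCCUGAG in the mir-125b copies and GGCUCAG in the mir-24 copies.

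EVs were set against cells in the same way after each treatment, in libraries that share no sample with the controls. The contrasts still share the fit of all 24 libraries, its filter on low counts and its estimate of the spread. Precursors all but absent from cells that passed the filter through EV libraries could hardly be called other than higher. The overlap of higher calls is therefore a description only. After LPS 59 precursors (21.1%) were called higher in EVs and 27 (9.64%) lower, after IL10 77 (27.5%) and 44 (15.7%), and after TGFB 71 (25.4%) and 50 (17.9%). Of the 73 higher in control, 39 were also higher after LPS (53.4% of the control list, 66.1% of the LPS list), 61 after IL10 (83.6% and 79.2%) and 54 after TGFB (74.0% and 76.1%). Of the 35 lower in control, 9 were also lower after LPS (25.7% and 33.3%), 23 after IL10 (65.7% and 52.3%) and 25 after TGFB (71.4% and 50.0%). In all 4 settings 33 were higher and 9 lower. Opposite calls were made for mir-466d after LPS and for mir-29a after IL10. The difference of mir-6236 was 8.72 in control, 6.60 after LPS, 9.24 after IL10 and 9.27 after TGFB, and that of let-7a-1 -1.52, -0.73, -1.74 and -1.60. Against the mean of the 3 treatments the control difference of mir-6236 was 0.35 ± 0.36 larger (edgeR adjusted p = 0.861) and that of let-7a-1 0.17 ± 0.31 further below 0 (log2 difference -0.17, adjusted p = 1.00).

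Against that mean, 2 of 280 precursors (0.714%) were called different in control, and 37 (13.2%) had an unadjusted p under 0.05. mir-3963 had 46, 51 and 36 counts in control cells and 99, 8 and 3 in control EVs, and its difference was larger by 3.50 ± 0.83 on the log2 scale (edgeR adjusted p = 0.0481). Without EV library 1, which held most of it, the value was 0.64 (adjusted p = 1.00). mir-342, a myeloid microRNA from an intron of Evl, had 18, 26 and 19 counts in control cells and 1, 4 and 6 in control EVs, with a difference larger by 5.60 ± 1.34 (adjusted p = 0.0481). Leaving out EV library 1, 2 or 3 in turn put its adjusted p at 0.0525, 0.126 and 0.134. With library totals or with a replicate block neither was called. Both kept their direction in each of these settings.

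Control EV library 1 stood apart for a small set of precursors, chosen after their values were seen, as were mir-664, mir-682, mir-466d and some let-7 members. mir-3963, mir-5100 and mir-3968 share the letters AUCCCA near their 5′ end, in capitals here.
miR-3963: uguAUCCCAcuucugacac
miR-5100: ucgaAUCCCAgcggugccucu
miR-3968: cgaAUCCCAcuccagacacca
AUCCCA was in 7 of the 1674 distinct mature sequences of the table (0.418%) and in 4 tested precursors, the fourth being mir-191, which was not called. mir-5100 had 77, 5 and 10 counts in EVs and mir-3968 16, 5 and 2, so library 1 was the highest for all 3. Their differences from cells were 6.21, 6.09 and 4.70. Without EV library 1 they were 2.84, 3.40 and 2.91, all still called (edgeR adjusted p = 0.00280, 0.00239 and 0.0232), while the median over all tested moved to -1.58. miR-3963 lies at chr3:151023839-151023857 on the minus strand outside other GENCODE genes, miR-5100 at chr11:60728698-60728718 on the plus strand in an intron of Mief2, and miR-3968 at chr11:115447969-115447989 on the minus strand, antisense to an exon of Trim80.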

How the data were processed

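The deposited values are counts, whole numbers of reads per microRNA precursor as made by the authors; they were not normalized. Per the labels' protocols, RNA came from cell pellets or 20 µL of EV fraction, libraries had 18 PCR cycles, and 40 M reads were planned per library. Per the submitters' processing notes DESeq2 was used; not given in the sources used here are the aligner, annotation and build. Analysed were 6 of the 8 deposited tables; the other 2 repeat their contents. Column names gave the group of each library. The members, lists and rules were chosen with earlier results of these data known.

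Counts were fitted with edgeR 4.0.16 in R 4.3.3 (TMM, filterByExpr with a minimum count of 10, quasi-likelihood F test, two-sided, 16 residual degrees of freedom), after the procedure was tested on simulated data. The simulation gave cells and EVs the same spread, unlike the data. It therefore does not show how calls hold at the wider spread of the EVs. Normalised CPM divide each count by the product of library total and TMM factor. Thinning used exact hypergeometric expectations, or 1 seeded draw for entropy. Precursors were named by rule: the 10 smallest p in each direction without overlap between groups, the 10 most abundant of each group, up to 4 members of each list, a preset list, the 5 most abundant seen in 1 group, and those called in the comparison with treatments; some were left out for length. Alternatives were DESeq2's size factors, library totals, 2 other filters, DESeq2 1.42.0 (Wald test), limma 3.58.1 voom, fewer libraries, a replicate block, other precursor sets and thinned cells.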

Additional observations from a re-analysis of the deposited data

Results flagged for a closer look

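For a pair of precursors the difference between EVs and cells passed the test of control against the mean of the treatments, in the fit with TMM factors. The control difference of EVs from cells exceeded the mean of the same difference after LPS, IL10 and TGFB for mir-3963 by 3.50 and for mir-342 by 5.60 on the log2 scale (edgeR adjusted p = 0.0481 for both, by the interaction contrast). For mir-3963, EV library 1 held 99 of the EV counts against 8 and 3 in the others, and without that library the value was 0.64. For mir-342 the treated EV libraries held 0 to 5 counts each and the control ones 1, 4 and 6. When any one EV library was left out its adjusted p was 0.0525 to 0.134, and neither precursor was called with library totals or with a replicate block. No cause was tested.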

How the results depend on the processing

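The number of calls moved with the scale and the filter. Against 108 calls (73 higher, 35 lower), library totals gave 225 (170 lower), no filter 197 (150 higher), a mean of at least 50 counts 19 (13 higher, 6 lower), only the 6 control libraries 56 (36 and 20), cells thinned to the EV total 27 (17 and 10), DESeq2's size factors 8 lower, DESeq2's Wald test 13 lower and 1 copy per set of numbered copies 58 lower. Leaving out a library in turn gave 68 to 136 calls, 52 to 75 higher and 16 to 62 lower: 16 to 20 lower without a cell library and 58 to 62 without an EV library, with fewer and more precursors tested. The median over all tested was -0.24 to -0.21 without a cell library and -1.60 to -1.44 without an EV library. The replicate block gave 57 higher and 20 lower. It is no paired analysis, because same-numbered control libraries did not deviate together (correlations -0.07, 0.04 and 0.05). For the difference from the treated groups, 2 were called against 4 with DESeq2's size factors, 0 with library totals, 9 without a filter, 0 with the replicate block, 4 without mir-6236 and mir-6240, and 0 to 1 with a library left out. With mir-6236 left out first, EVs minus cells at matched depth turned from -58.3 to 20.0 precursors with at least 5 counts and from -12.4 to 52.5 with at least 1, and precursors holding 90% of counts from -31.0 to 22.0. Signs turned for precursors that were not called. In the order DESeq2's size factors, mean of at least 50 counts, DESeq2's Wald test and thinned cells, mir-21a was at 0.73, 0.79, 0.74 and 0.92, mir-142a at 0.83, 0.88, 0.84 and 0.91, let-7g at 0.72, 0.78, 0.72 and 0.88, and let-7b at 0.21, 0.26, 0.22 and 0.33. With only the 6 control libraries and without mir-6236 and mir-6240, mir-21a was at 0.22 and 0.0057, mir-142a at 0.30 and 0.11, and let-7g at 0.20 and 0.0012. With a library left out mir-21a was at -1.28 (without EV library 3) to 0.37, mir-142a at -1.07 to 0.47 and let-7g at -0.96 to 0.37, above 0 when a cell library was left out and below 0 when an EV library was. let-7c-2 was at 0.020 with a mean of at least 50 counts and 0.040 with thinned cells, and mir-146a at -0.67 with library totals. The causes were not tested.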
